A study of Homo sapiens with 7 samples.

Results

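The immunoglobulin kappa light chain locus was described from 6 lists of ChIP-seq peaks, which are stretches of genome where DNA recovered with an antibody piled up above an input control. The cells were OCI-Ly7, an established human line of diffuse large B-cell lymphoma grown in suspension, and the labels name no treatment or genetic change. There was 1 library for each of OCT2, OCT1, OCA-B, EP300, CREBBP and MED1, and 1 input library that served as the common control and has no list of its own. No value below therefore has a replicate check, and the differences carry no test. Members were all peaks with at least 1 bp inside a stretch of 1.61 Mb of hg38 chromosome 2, from just before RPIA to beyond the last distal V segment. The first began at 88691097 and the last ended at 90267333. They numbered 901 of the 323423 peaks on chromosomes 1 to 22 and X. The OCA-B list gave 149, the OCT2 list 218, the OCT1 list 55, the MED1 list 154, the CREBBP list 140 and the EP300 list 185.

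The kappa light chain of an antibody is put together in developing B cells by joining 1 of many V segments to 1 of a few J segments, upstream of a single constant gene. In the human genome the V segments lie in a proximal cluster near the J segments and in a distal cluster, which is an inverted near copy of the proximal one. Each V segment has its own small promoter, typically with an octamer that the POU proteins OCT1 (POU2F1) and OCT2 (POU2F2) bind. OCA-B (POU2AF1) is a lymphoid coactivator that sits on octamer-bound POU factors. MED1 is a subunit of Mediator, the complex that links enhancers to RNA polymerase, and CREBBP and EP300 are paralogous histone acetyltransferases. Textbook maps place an enhancer in the intron between the J segments and the constant gene, and further enhancers beyond the constant gene. The gene table used holds no enhancers, so peaks are given by distance from the constant gene and not by an enhancer's name. Which V segment OCI-Ly7 has rearranged, and which stretches that rearrangement moved or removed, was not analysed here. All positions are those of the reference order.

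In the RefSeq annotation of GRCh38.p14, which is the hg38 build, the constant gene IGKC lies at chr2:88857361-88857683. The 5 J segments follow from IGKJ5 at 88860568 to IGKJ1, which ends at 88861923, and the first V segment, IGKV4-1, begins at 88885572. RPIA, a gene of the pentose phosphate pathway that borders the locus on the far side of the constant gene, runs from 88691673 to 88750929. IGKC and the J segments are transcribed towards RPIA, so downstream of the constant gene means towards RPIA.

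A pair of RefSeq windows show the reference sequence at places that the results turn on. Such a window runs from 250 bases before to 50 bases after an annotated gene start. The first belongs to the uncharacterised gene LOC124907856 (chr2:88855555-88855854, minus strand), just downstream of IGKC. It was chosen because an OCT2 summit lay at its base 150 and an OCT1 summit at its base 124, the summit being the base of highest pileup in a peak. Capitals mark the 1 stretch within 1 mismatch of the octamer ATGCAAAT or of its reverse complement ATTTGCAT.

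LOC124907856: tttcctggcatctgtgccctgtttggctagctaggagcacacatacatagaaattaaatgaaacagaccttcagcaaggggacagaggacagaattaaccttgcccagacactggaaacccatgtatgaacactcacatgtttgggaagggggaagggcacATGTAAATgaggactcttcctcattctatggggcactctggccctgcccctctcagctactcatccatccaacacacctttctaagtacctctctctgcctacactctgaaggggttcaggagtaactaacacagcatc

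The exact octamer was in 623 of the 35116 RefSeq promoter windows of this length (1.77%), and a match within 1 mismatch in 5991 (17.1%). Peaks of all 6 lists overlapped the LOC124907856 window. The OCT2 and OCT1 summits lay inside it, and the OCA-B, EP300, CREBBP and MED1 summits lay outside. Fold enrichment is the authors' ratio of the pileup at the summit to the control. It was 24.4 for the OCT2 peak and 6.30 for the OCT1 peak. The folds of the other peaks were 19.1 for OCA-B, 29.5 for EP300, 49.3 for CREBBP and 26.2 for MED1. These belong to places outside the window. Depth, antibody and duplicate handling differ between the libraries, so folds set side by side do not rank the factors.

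The second window belongs to LOC107985910 (chr2:89244711-89245010, minus strand) and was chosen because it reads through the 3′ end of the V segment IGKV2-30. Capitals mark a recombination signal, the heptamer CACAGTG and the nonamer ACAAAAACC with 12 bases between them, at which the V(D)J recombinase cuts.

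LOC107985910: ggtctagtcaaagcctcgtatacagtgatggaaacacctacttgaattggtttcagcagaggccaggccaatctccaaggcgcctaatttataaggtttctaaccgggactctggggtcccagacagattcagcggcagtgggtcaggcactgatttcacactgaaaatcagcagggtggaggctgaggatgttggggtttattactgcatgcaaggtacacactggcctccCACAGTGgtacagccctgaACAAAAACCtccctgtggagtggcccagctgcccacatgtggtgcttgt

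The segment's annotated low-coordinate end falls at base 230 of this window and the heptamer starts at base 233. The search covered both strands, and this was the single window of the 35116 with that exact signal, while the heptamer alone was in 1882 (5.36%). The signal reads on the minus strand, so IGKV2-30 starts at its high-coordinate end, as textbook maps have it for the proximal cluster. An EP300 peak of fold 29.0 and an OCT2 peak of fold 3.92 touched the window, and no peak of the other 4 lists did. Both summits lay outside the window, that of EP300 117 bp upstream of the 5′ end of IGKV2-30, so these folds are not enrichments at the signal. None of the 76 V segments has a promoter window in the RefSeq table, so octamers at V promoters are not shown.

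The locus was denser in peaks than the genome in every list. Per 100 kb it held 13.5 OCT2, 3.42 OCT1, 9.25 OCA-B, 11.5 EP300, 8.70 CREBBP and 9.57 MED1 peaks. Against each list spread over the effective genome of 2700000000 bp that the authors' peak caller was given, this was 4.95, 3.91, 4.51, 3.76, 5.27 and 5.94 times as many, in the same order. The share of members above the 90th percentile of fold in their own list was 19.3% for OCT2, 14.5% for OCT1, 24.8% for OCA-B, 18.4% for EP300, 12.9% for CREBBP and 16.2% for MED1. Median folds in the locus were close to those of the lists, for example 6.07 against 5.64 for OCA-B and 6.02 against 5.88 for OCT2. The locus thus held many peaks of ordinary fold and a smaller set of very strong ones.

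The libraries held 12357450 (CREBBP) to 27885791 (EP300) tags after duplicate removal by the peak caller, against 37517450 in the control. The labelled cell type was checked by marker genes: 7 or 8 of 8 B cell genes had a peak within 1 kb of an end in each list, against 3 or 4 of 8 T cell genes and at most 2 of 8 myeloid genes. Over all 19974 protein-coding genes the share with such a peak was 31.0% (CREBBP) to 46.2% (OCA-B), so the T cell counts were close to that background. Of 20 genes whose products act on the locus (such as PAX5, IRF4, RELA and the recombinase genes), 14 had such a peak for OCT2, OCT1, MED1 and CREBBP, 15 for OCA-B and 16 for EP300. RAG2, a subunit of the recombinase, and IKZF1, which encodes Ikaros, had none in any list. A peak marks binding near a gene, not its expression.

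The constant gene and the J segments lay under peaks that were among the widest of their lists. The MED1 peak ran from 88829134 to 88862176, 33043 bp in 1 piece and the widest of the 43508 MED1 peaks. The OCA-B peak from 88854547 to 88861548 (7002 bp) was likewise the widest of its list. The CREBBP peak over the same genes spanned 8109 bp and ranked 2 by width, the OCT2 peak spanned 7706 bp and ranked 4, and the OCT1 peak spanned 3118 bp and ranked 8. The EP300 summits over these genes came from 2 separate peaks, and a peak of 13607 bp farther downstream ranked 4. Of the 4.6 kb from IGKC to IGKJ1, peaks of OCT2, MED1 and CREBBP covered 100%, OCA-B covered 98.6%, EP300 96.6% and OCT1 39.2%.

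**Figure D1:**
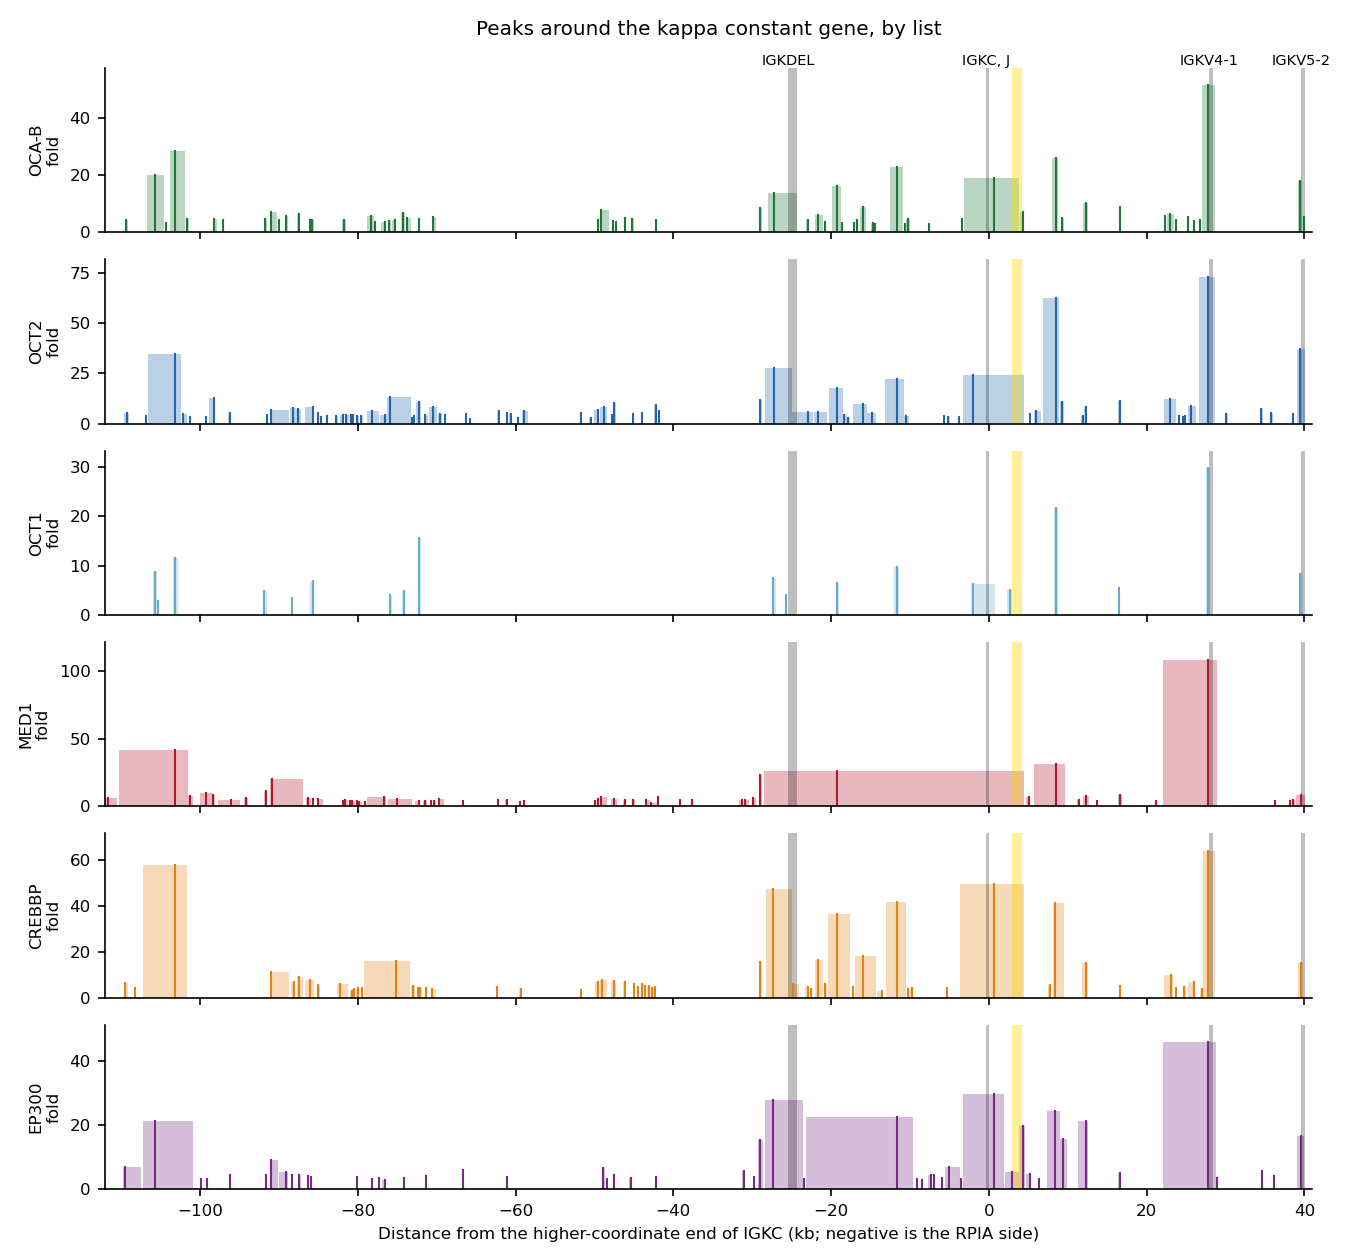
Peaks of the 6 lists around the kappa constant gene. The x axis gives the distance from the higher-coordinate end of IGKC in kb (negative values lie on the RPIA side) and each y axis the fold enrichment of 1 list; bars span a peak's width, dark lines mark summits, grey bands mark IGKDEL, IGKC, IGKV4-1 and IGKV5-2 and the yellow band the J segments. The MED1 bar of 33043 bp reaches over IGKDEL, IGKC and the J segments, and every list has its highest bar of this window at IGKV4-1.

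Within that covered stretch, the summits of different lists fell at a few shared places. Summits less than 250 bp apart were joined into a site. Between IGKC and the J segments, 0.67 kb from IGKC, OCA-B (fold 19.1), CREBBP (49.3) and EP300 (29.5) shared a site whose summits lay between 88858354 and 88858372. The OCT2 summit and the stronger OCT1 summit of this stretch lay elsewhere, 1.64 kb downstream of IGKC, in the LOC124907856 window printed above. The OCT2 and OCA-B peaks overlapped over the intron, but their summits lay on opposite sides of the constant gene.

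Downstream of the constant gene, 3 sites held summits of 5 lists within the wide MED1 peak. At 11.4 kb the folds were 22.2 for OCT2, 9.66 for OCT1, 23.0 for OCA-B, 22.4 for EP300 and 41.5 for CREBBP. At 18.9 kb they were 17.7 for OCT2, 6.43 for OCT1, 16.1 for OCA-B, 36.4 for CREBBP and 26.2 for MED1. This was the place of the single MED1 summit of the wide peak, with a pileup of 348 tags, and its 5 summits fell in a span of 14 bp. At 27.0 kb the folds were 27.6 for OCT2, 7.45 for OCT1, 13.6 for OCA-B, 27.7 for EP300 and 47.4 for CREBBP. That site lay beyond IGKDEL (88832222 to 88833331), the kappa deleting element, which recombination uses to remove the constant gene in cells that go on to lambda. At 28.7 kb a separate narrower site followed, with OCA-B at 8.46, OCT2 at 11.8, MED1 at 22.9, CREBBP at 15.6 and EP300 at 15.5 and no OCT1 peak. At each of the 3 sites under the wide MED1 peak, the list without a summit had a peak lying over it.

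The highest OCA-B, OCT2, MED1 and CREBBP folds downstream of the constant gene lay at a site 103 kb away, close to the end of RPIA. There the OCA-B fold was 28.4, the OCT2 fold 34.6, the OCT1 fold 11.5, the MED1 fold 41.5 and the CREBBP fold 57.9. The CREBBP peak of 5627 bp ranked 11 in its list by width, and the MED1 peak of 8669 bp ranked 27. An EP300 peak of fold 21.2 covered the site, with its summit outside it. Between this site and the sites near the constant gene, the peaks were many. From RPIA to IGKC, strong sites included, the median fold of every list but OCT1 lay below that of its whole list. The stretch of 106.4 kb from RPIA to IGKC held 63 OCT2, 14 OCT1, 47 OCA-B, 37 EP300, 46 CREBBP and 46 MED1 peaks. The median percentile of their folds within the list was 36.7 for OCT2, 60.5 for OCT1, 28.3 for OCA-B, 26.9 for EP300, 30.5 for CREBBP and 42.9 for MED1. The first OCT1 peak by fold there, 15.5 at 71.9 kb, had OCT2 at 10.7 and OCA-B, MED1 and CREBBP between 4.22 and 4.77. MED1 peaks covered 59.6% of the stretch, OCT2 46.0%, CREBBP 42.0%, EP300 36.7%, OCA-B 27.7% and OCT1 6.83%.

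Between the J segments and the first V segment, 3 sites had summits of all 6 lists. The first, 8.50 kb from IGKC and upstream of IGKJ1, had an OCT2 fold of 62.4, which ranked 30 of 73829 OCT2 peaks. Its other folds were 21.7 for OCT1, 26.0 for OCA-B, 24.4 for EP300, 41.1 for CREBBP and 31.1 for MED1. No gene of the table lies there, and the nearest, IGKJ1, ends 1432 bp from the merged region, a merged region being peaks of any list joined where they overlap. The second, at 16.6 kb, was weak, with folds of 4.88 (EP300) to 11.4 (OCT2). At 12.3 kb, 5 lists had a summit, with OCT2 at 8.10, OCA-B at 10.2, EP300 at 21.2, CREBBP at 15.3 and MED1 at 7.80 and no OCT1 peak.

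The third was the promoter side of IGKV4-1 and the strongest site of the locus in 4 of the 6 lists. Its folds were 73.2 for OCT2, 29.7 for OCT1, 51.5 for OCA-B, 45.8 for EP300, 63.9 for CREBBP and 108.5 for MED1. The MED1 value was the highest of all 43508 MED1 peaks, the OCT2 value ranked 10 and the OCA-B value 17 in their lists. The 6 summits lay 88 to 133 bp upstream of the segment's 5′ end. The MED1 and EP300 peaks there were 6.83 and 6.69 kb wide. OCA-B had a higher fold elsewhere in the locus, at IGKV2D-29 (56.4), and EP300 at IGKV1D-8 (53.9) and IGKV1-27 (48.6).

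The V segments were examined next. Many of them are near copies of another, so reads can be placed on either and values of a single copy are uncertain. How the aligner treated such reads is not given in the sources used here. RefSeq lists 76 in the locus, 40 in the proximal and 36 in the distal cluster, and classes 44 as functional segments and 32 as pseudogenes. The table gives no strand, so a segment counted as having a peak if a peak reached, with any of its bases, to 1 kb or less from one of its ends. In the proximal cluster 25 of 40 had an OCT2 peak, 14 OCT1, 22 OCA-B, 24 EP300, 21 CREBBP and 21 MED1. In the distal cluster the numbers of 36 were 23, 15, 19, 22, 18 and 18 in the same order. Of all 19974 protein-coding genes, 46.2% had such a peak in the OCA-B list, 40.9% in OCT2, 41.9% in OCT1, 45.5% in EP300, 31.0% in CREBBP and 33.7% in MED1. The share of V segments was above that of protein-coding genes for OCT2, at 62.5% of proximal and 63.9% of distal segments, and for OCA-B, MED1, CREBBP and EP300. For OCT1 it was 35.0% of proximal segments, below the share of protein-coding genes, and 41.7% of distal segments, close to that share. The windows at both ends of a short segment overlap, so less sequence was searched at a V segment than at a longer gene. The 147 T cell receptor V segments, which belong to loci rearranged in T cells, had shares of 25.2% for OCT2, 3.40% for OCT1, 18.4% for OCA-B, 22.4% for EP300, 13.6% for CREBBP and 15.0% for MED1.

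The lists were nearly nested at the V segments. OCT2 had a peak at 48 of the 76, at each of the 41 segments with OCA-B, at each of the 39 with CREBBP and at each of the 29 with OCT1. Those 29 were also the segments with peaks of all 6 lists, 14 proximal and 15 distal. EP300 had 2 segments without OCT2, IGKV1-9 (EP300 fold 7.39) and IGKV1D-42 (5.03), and MED1 had 2, IGKV2-19 (MED1 fold 3.37) and IGKV3-25 (4.04). The peak counted at IGKV3-25 also lies within 1 kb of IGKV2-26, its summit being 987 bp from IGKV3-25 and 821 bp from IGKV2-26, and the window of 500 bp drops it. At IGKV1-13, IGKV1D-13 and IGKV6D-41, OCT2 was the single list present, with folds of 5.78, 5.48 and 8.92. OCT2 and OCA-B without the other 4 lists occurred at IGKV1-33.

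**Figure D2:**
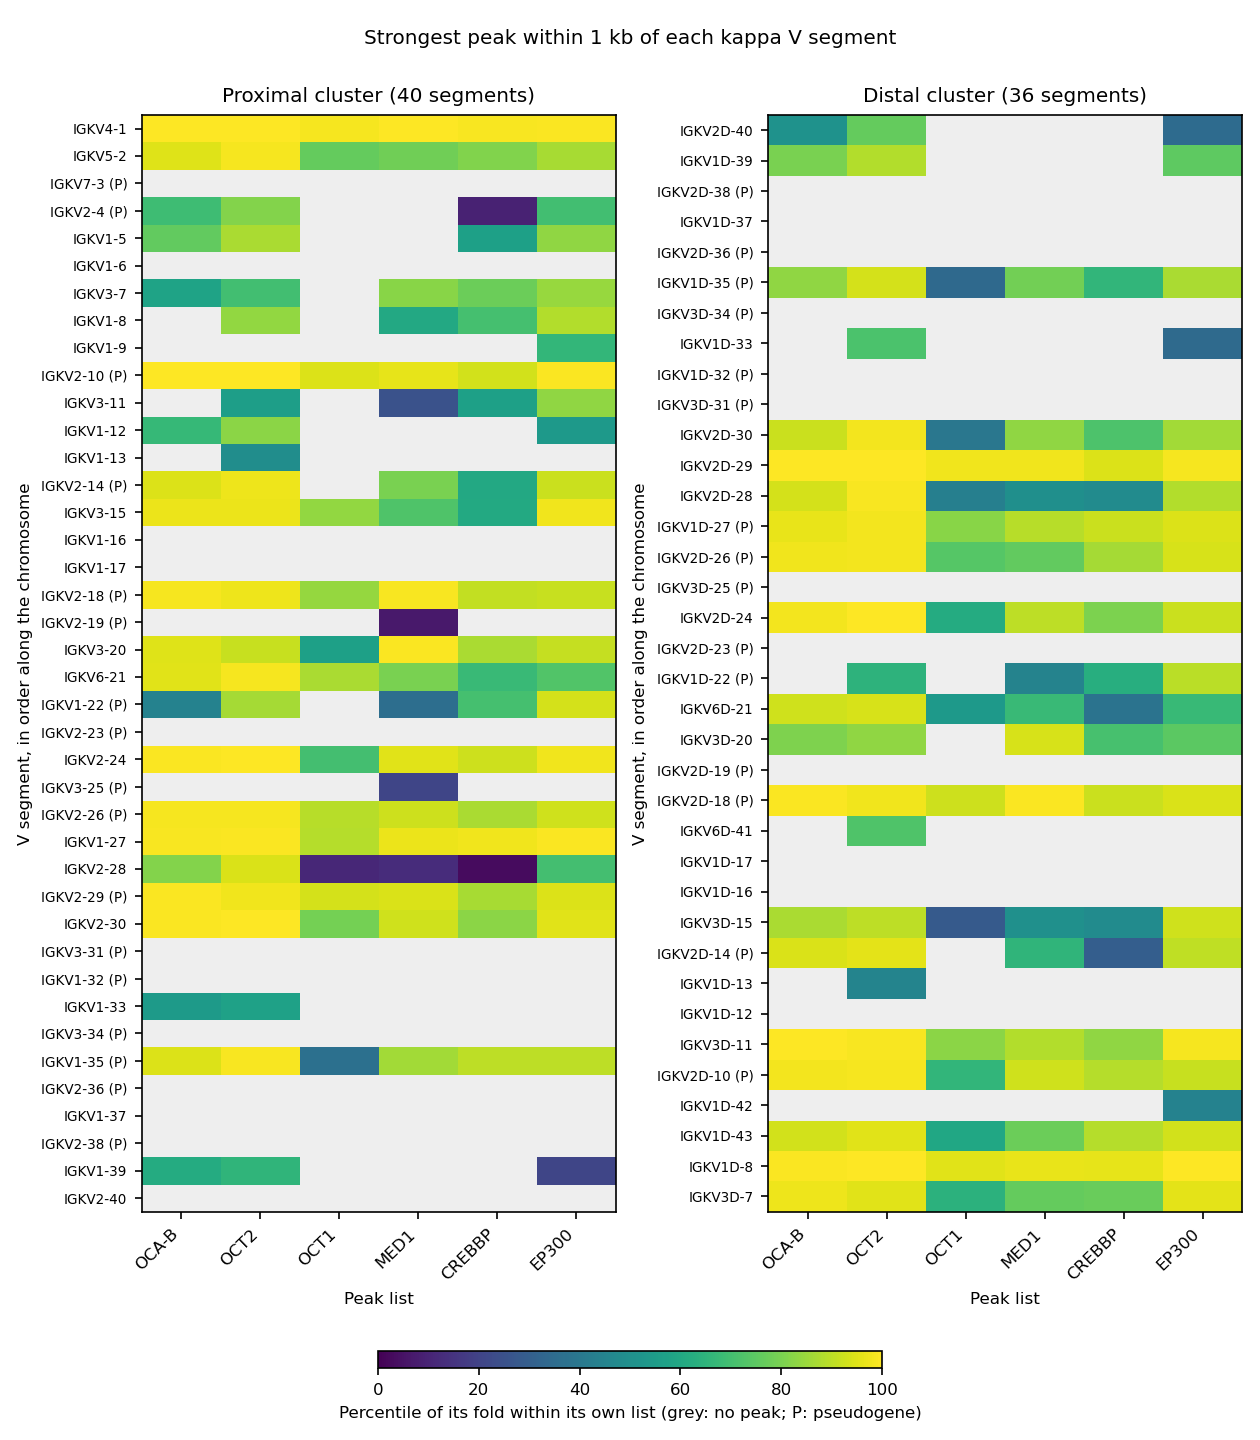
Strongest peak within 1 kb of each V segment in the 6 lists, in order along the chromosome, with the proximal cluster on the left and the distal on the right. Colour gives the percentile of the peak's fold within its own list, grey means no peak and P a pseudogene; IGKV4-1 is near the top of the scale in every list, and 12 segments of each cluster are grey throughout.

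The proximal segments with all 6 lists were IGKV4-1, IGKV5-2, IGKV3-15, IGKV3-20, IGKV6-21, IGKV2-24, IGKV1-27, IGKV2-28 and IGKV2-30 of the functional class, and the pseudogenes IGKV2-10, IGKV2-18, IGKV2-26, IGKV2-29 and IGKV1-35. The distal ones were IGKV2D-30, IGKV2D-29, IGKV2D-28, IGKV2D-24, IGKV6D-21, IGKV3D-15, IGKV3D-11, IGKV1D-43, IGKV1D-8 and IGKV3D-7, and the pseudogenes IGKV1D-35, IGKV1D-27, IGKV2D-26, IGKV2D-18 and IGKV2D-10. Beside IGKV4-1, the first proximal segment by OCT2 fold was the pseudogene IGKV2-10. Its folds were 60.3 for OCT2, 15.4 for OCT1, 35.8 for OCA-B, 45.1 for EP300, 31.4 for CREBBP and 20.1 for MED1. The first distal segments were IGKV2D-29 with an OCT2 fold of 63.0 and IGKV1D-8 with 58.2. At IGKV2D-29 the OCA-B fold of 56.4 ranked 9 of 55361 OCA-B peaks, and the OCT1 fold was 22.1. IGKV2-28 had peaks of all 6 lists but at low folds for OCT1 (3.62), MED1 (3.65) and CREBBP (3.49), beside an OCT2 fold of 23.8.

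Segments of the functional class had an OCT2 peak at 33 of 44 and pseudogenes at 15 of 32. For OCA-B the counts were 27 and 14, for OCT1 19 and 10, for EP300 31 and 15, for CREBBP 24 and 15, and for MED1 23 and 16. The shares of the classes lay closest together for MED1. Over the segments with an OCT2 peak, its median fold was 33.3 at the 15 pseudogenes and 22.8 at the 33 functional segments. Functional segments without a peak of any list numbered 9, namely IGKV1-6, IGKV1-16, IGKV1-17, IGKV1-37 and IGKV2-40 in the proximal cluster and IGKV1D-37, IGKV1D-17, IGKV1D-16 and IGKV1D-12 in the distal one. Of these, 8 belong to the IGKV1 family.

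The V families differed in their counts. This split was chosen after the values were seen and is a description. All 6 lists were present at 14 of 27 IGKV2 segments, 5 of 14 IGKV3 segments and 6 of 29 IGKV1 segments. Median OCT2 folds were 34.9 for IGKV2, 18.4 for IGKV3 and 14.6 for IGKV1. In IGKV3 the functional segments had OCT2, MED1, CREBBP and EP300 peaks at 8 of 8, while of the 6 pseudogenes 1, IGKV3-25, had the MED1 peak shared with IGKV2-26 and none had a peak of another list. In IGKV2, pseudogenes had OCT2 at 10 of 18 and functional segments at 8 of 9. In IGKV1 the order was turned, with OCT2 at 5 of 7 pseudogenes and 12 of 22 functional segments, and MED1 at 5 of 7 and 4 of 22. At the pseudogenes IGKV1-22 and IGKV1D-22, however, the OCT2 summits lay at the 3′ end and none upstream of the 5′ end. MED1 had no summit upstream of the 5′ end at these or at IGKV1-35 and IGKV1D-35. The turned order is thus that of peaks near either end and does not hold for the 5′ side alone. IGKV4-1 and IGKV5-2, each the sole segment of its family, had all 6 lists.

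**Figure D3:**
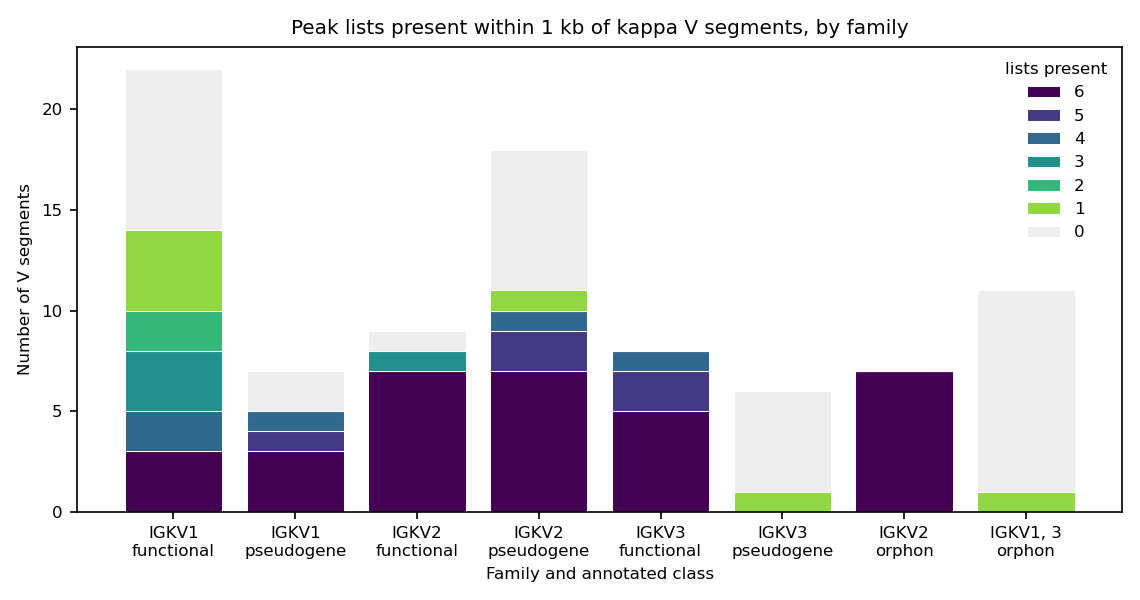
Number of V segments by family and annotated class, coloured by how many of the 6 lists have a peak within 1 kb; the last bars show V segments outside the locus, called orphons. All 6 lists are present at 7 of 9 functional IGKV2 segments, at 5 of 8 functional IGKV3 segments and at 3 of 22 functional IGKV1 segments.

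The main summits at the V segments fell in a narrow band before the 5′ end. Where a list had several summits within 1 kb of a segment, the position is that of the strongest peak. For the position along a segment, the start was taken from textbook orientation: the low-coordinate end for the distal cluster, IGKV4-1 and IGKV5-2, and the high-coordinate end for the other proximal segments. The choice of the nearest end does not use this orientation, and OCT2 summits were nearer to the high end at 20 of 23 of those proximal segments and nearer to the low end at 22 of 23 distal ones. The median summit lay 96 bp upstream of the 5′ end for both OCA-B and OCT2, 111 bp for OCT1, 72 bp for MED1, 95 bp for CREBBP and 101.5 bp for EP300. OCT1 summits lay in the 300 bp upstream at 29 of 29 segments, OCA-B at 38 of 41, OCT2 at 43 of 48, EP300 at 39 of 46, CREBBP at 31 of 39 and MED1 at 28 of 39. Counting every summit within 1 kb, the segments with one in those 300 bp were 29 for OCT1, 39 for OCA-B, 44 for OCT2, 41 for EP300, 33 for CREBBP and 28 for MED1. Measured from the OCT2 summit of the same segment, the OCA-B summit was a median of 7 bp away and within 100 bp at 41 of 41 segments. The medians were 17 bp for EP300, 19 bp for CREBBP, 23 bp for OCT1 and 38 bp for MED1, within 100 bp at 41 of 44, 34 of 39, 29 of 29 and 30 of 37 segments.

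**Figure D4:**
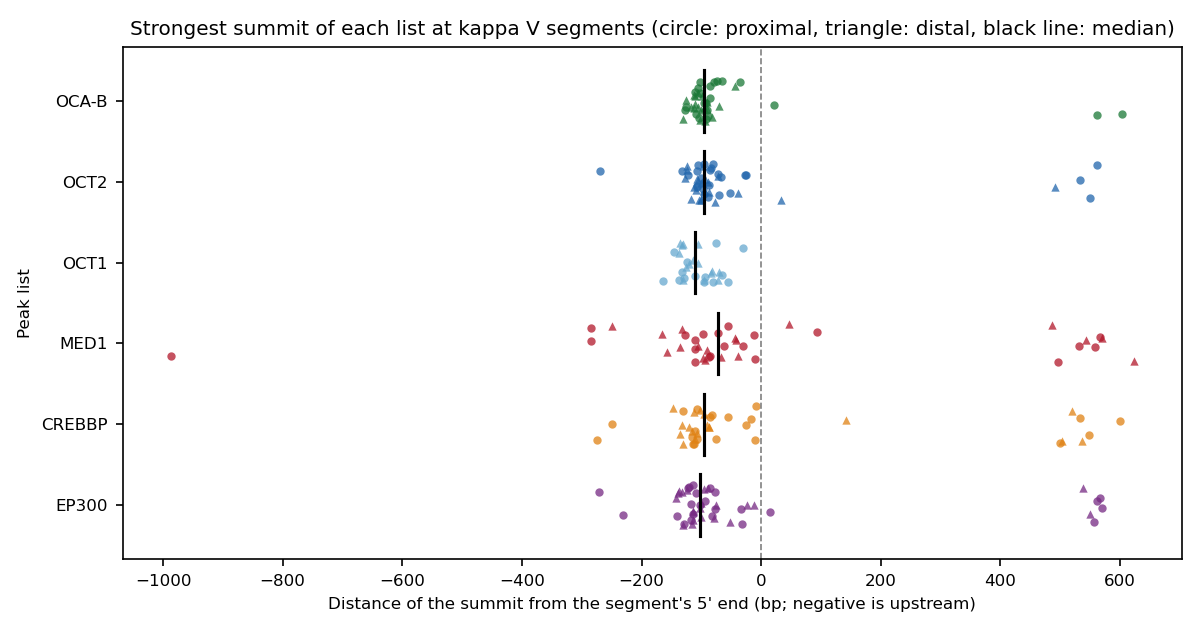
Distance from the 5′ end of each V segment to the summit of the strongest peak of each list in bp (negative is upstream), with 1 row for each list; circles are proximal and triangles distal segments, the vertical spread within a row is for legibility, and black lines are medians. The points gather about 100 bp upstream in every list, and a second group of 27 points without OCT1 stands 486 to 623 bp downstream.

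A second, smaller group of summits lay at the other end of the segments. Counting every summit within 1 kb of a segment, 60 summits at 23 segments lay within 100 bp of the annotated 3′ end, the side of the recombination signal. They were 15 CREBBP, 12 EP300, 11 MED1, 11 OCT2 and 11 OCA-B summits and no OCT1 summit. The OCT1 list had 30 summits near segments in all, with several at 1 segment. The other lists had 55 (MED1) to 70 (OCT2), with several at 13 (MED1) to 18 (EP300) segments. At 10 of the 11 segments with such an OCA-B summit and 7 of the 11 with such an OCT2 summit, the same list also had a summit in the 300 bp upstream of the 5′ end. The pseudogene IGKV2-26 is an example, with OCA-B at 7.61, MED1 at 12.9, CREBBP at 8.88 and EP300 at 13.5 around its 3′ end beside 26.7, 14.7, 21.5 and 23.9 upstream of its 5′ end. In 27 of the 60 the 3′ summit was that of the list's strongest peak at the segment. These 27 lay at 8 segments, 486 to 623 bp downstream of the 5′ end and 2 to 96 bp past the 3′ end. Of these, 8 were MED1, 7 CREBBP, 6 EP300, 4 OCT2 and 2 OCA-B summits, and none was an OCT1 summit. The segments were IGKV3-7, IGKV3-11, IGKV1-22, IGKV1-35, IGKV1D-35, IGKV1D-22, IGKV3D-20 and IGKV3D-7. At IGKV1-35, OCT2 had a single summit 73 bp upstream (fold 40.6) and EP300 a single one 557 bp downstream (20.4), while OCA-B and CREBBP had both. The pseudogene IGKV1-22 had EP300 at 25.3, OCT2 at 14.6, CREBBP at 10.3, OCA-B at 5.25 and MED1 at 4.57, all at the 3′ end. This group was noticed in the values and is given as a description.

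Of the segments, 33 proximal and distal pairs carry matching names (IGKV1-33 and IGKV1D-33, for example). OCT2 peaks were at both copies of 20 pairs, at neither of 11, and at a single copy of 2, IGKV1-12 in the proximal and IGKV2D-40 in the distal cluster. OCA-B was at both copies of 15 pairs and at 1 copy of 6, OCT1 at both of 11 and at 1 of 4, MED1 at both of 17 and at 1 of 2, and EP300 at both of 18 and at 1 of 3. CREBBP was at both copies of 17 pairs and at neither of 16, with no pair split. The split pairs of OCA-B were IGKV1-12, IGKV1-22 and IGKV1-33 with the proximal copy, and IGKV1D-8, IGKV3D-11 and IGKV2D-40 with the distal one. Those of OCT1 were IGKV3-20 with the proximal and IGKV3D-7, IGKV1D-8 and IGKV3D-11 with the distal copy. Those of EP300 were IGKV1-12, IGKV1D-33 and IGKV2D-40, and those of MED1 were IGKV2-19 and, by the peak shared with IGKV2-26, IGKV3-25.

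Where both copies had a peak, the median fold ratio was below equality in every list. The median log2 ratio of distal to proximal fold was −0.10 for OCT2, −0.28 for OCT1, −0.24 for OCA-B, −0.19 for EP300, −0.33 for CREBBP and −0.38 for MED1. The summits of the strongest OCT2 peaks of the copies lay a median of 13 bp apart along the segment, and within 50 bp at 16 of 20 pairs. The other 4 pairs were IGKV3-20, IGKV1-8, IGKV3-7 and IGKV3-11, and the last 3 were also the pairs with the largest OCT2 ratios. At IGKV3-11 the OCT2 fold was 6.40 with its summit past the 3′ end, and at IGKV3D-11 it was 40.0 with the summit 128 bp upstream. CREBBP and EP300 had weaker summits 215 and 273 bp upstream of the IGKV3-11 5′ end, at folds of 4.57 and 9.34, while OCT2 had none there. IGKV3-7 and IGKV3D-7 had OCT2 summits at both ends. Upstream, the OCT2 fold was 6.85 at 91 bp in IGKV3-7 and 26.2 at 98 bp in IGKV3D-7, and past the 3′ end it was 8.30 and 8.58. At IGKV3-7 OCA-B (6.21 at each end) and EP300 (12.1 upstream and 14.6 at the 3′ end) had both summits too. IGKV1-8 had 12.8 at 269 bp upstream and IGKV1D-8 58.2 at 118 bp. For these 3 pairs the ratio of the strongest peaks thus compares different places, and for IGKV3-7 the distal copy was higher at the like place upstream as well.

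**Figure D5:**
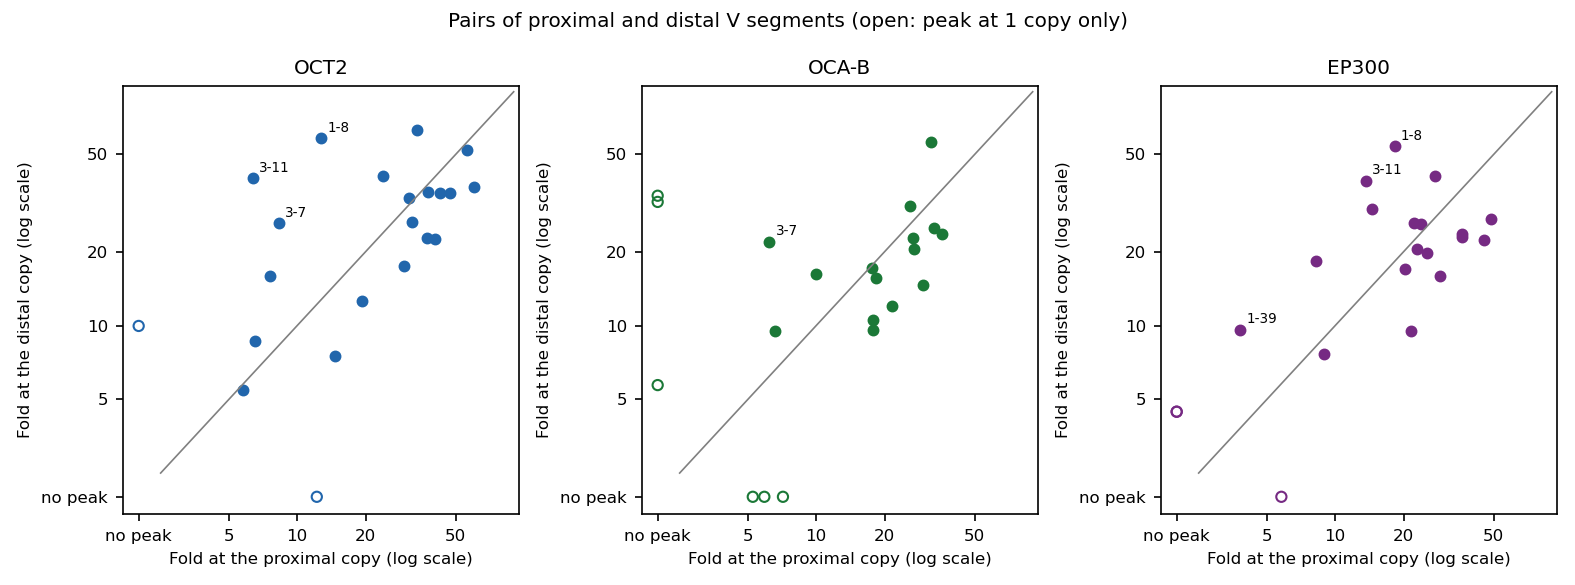
Fold at the proximal (x) and distal (y) copy of each V segment pair for OCT2, OCA-B and EP300, on log scales; open circles have a peak at 1 copy and stand on the "no peak" line of the other, and the grey line marks equal folds. For OCT2, 8 of the 20 filled points lie above the line, and IGKV3-11, IGKV1-8 and IGKV3-7 stand farthest above it.

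Peaks of the V clusters away from any segment were mostly in few lists. Of the merged regions of the proximal and distal V zones, 76 lay within 1 kb of a segment and 81 did not. Peaks of all 6 lists met in 28 of the 76 (36.8%) and in 4 of the 81 (4.94%), and 1 list alone made up 23 and 42 of them. The strongest of the 4 was a pair of places, chosen after their values were seen. In the proximal cluster it spanned 89150553 to 89153991, 5.76 kb from IGKV6-21, with folds of 20.9 for OCT2, 3.66 for OCT1, 12.8 for OCA-B, 40.6 for EP300, 42.4 for CREBBP and 47.2 for MED1. The MED1 fold ranked 65 in its list, while the OCT1 fold stood at percentile 11.6 of its own. In the distal cluster it spanned 90028243 to 90030798, 6.06 kb from IGKV6D-21, with folds of 34.0 for OCT2, 9.22 for OCT1, 19.8 for OCA-B, 45.0 for EP300, 42.2 for CREBBP and 33.8 for MED1. Both lie beside the same named segment of their cluster at a like distance, and the caution on near copies holds for them too.

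The 521.3 kb between the clusters were nearly empty of peaks. Gaps in the assembly and how well reads can be placed in this stretch were not checked, so this need not mean absence of binding. They held 3 OCT2, 2 OCT1, 3 OCA-B, 4 EP300, 2 CREBBP and 1 MED1 peaks, at most 0.77 per 100 kb. The strongest region, from 89612725 to 89613560, had an EP300 fold of 21.9 and a CREBBP fold of 11.3, with OCA-B, OCT2 and OCT1 at 5.19 to 5.36 and no MED1. The next, from 89559842 to 89560343, had EP300 at 12.9 and OCA-B, OCT2 and MED1 at 3.56 to 6.35. The third was the peak at IGKV2D-40, the first segment of the distal cluster. At the other border, the start of RPIA, the peaks were ordinary. A region from 88691097 to 88692104 had OCA-B at 6.17, OCT2 at 5.70 and OCT1 at 5.46 and no MED1, CREBBP or EP300 peak. The next region, from 88692157 to 88692933, had MED1 at 5.85, CREBBP at 6.05, EP300 at 5.20, OCA-B at 6.07 and OCT2 at 6.04. Inside RPIA, 117 kb from IGKC, MED1 (16.4), OCT2 (14.4), CREBBP (10.3), EP300 (8.72) and OCA-B (7.45) shared a site.

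Over the whole locus the 901 peaks formed 219 merged regions, of which 40 (18.3%) held all 6 lists and 80 (36.5%) a single one. Peaks were joined within the locus only, and the same shares over the genome were not computed. Whether these shares are unusual is therefore not known. Of the 40, 17 lay in the distal zone, 15 in the proximal zone, 5 downstream of the constant gene and 3 between the J segments and IGKV4-1. The single-list regions were mostly OCT2 (31), EP300 (23) and MED1 (22), against 2 for OCA-B, 1 for OCT1 and 1 for CREBBP. The lists themselves differ in length, with 73829 OCT2, 82569 EP300, 43508 MED1, 55361 OCA-B, 23571 OCT1 and 44585 CREBBP peaks.

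The peaks of OCA-B and OCT1 were overlapped by other lists more often in the locus than genome-wide. OCT2 overlapped 95.3% of the 149 OCA-B peaks in the locus, beside 78.3% over chromosomes 1 to 22 and X, MED1 overlapped 89.3% beside 61.7%, and EP300 88.6% beside 81.7%. OCT1, the shortest list, overlapped 34.2% of the OCA-B peaks beside 31.5%. Of the 55 OCT1 peaks, 98.2% overlapped OCT2 (67.9% genome-wide), 92.7% MED1 (52.9%), 92.7% CREBBP (53.1%) and 90.9% EP300 (66.7%). A single wide peak can overlap many peaks of another list, as the MED1 peak over the constant gene does. In the V zones OCT2 overlapped 42 of 44 proximal and 34 of 35 distal OCA-B peaks, and all 16 proximal and 18 distal OCT1 peaks. Of the 218 OCT2 peaks in the locus, MED1 overlapped 146 (49.6% of OCT2 peaks genome-wide), CREBBP 123 (49.5%), OCA-B 108 (56.4%) and OCT1 48 (21.4%). OCA-B overlapped 55.2% of MED1 peaks, below its 72.1% genome-wide. EP300 overlapped 70.1% of MED1 peaks (89.4%) and 85.7% of CREBBP peaks (92.1%). For CREBBP the zones differed, with EP300 on 42 of 42 proximal and 34 of 34 distal V peaks but on 37 of 57 peaks from the downstream stretch to IGKV4-1.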

How the data were processed

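ChIP-seq peak lists of 6 factors in OCI-Ly7 cells were used, 1 library each. Per the submitters' processing notes the build was hg38, and MACS2 2.1.1.20160309, SAMtools 1.3.1, Bowtie2 2.3.2.2 and CASAVA 1.8.2 are named with no order. Per the file headers, the authors called each library on its own against the same control at a q threshold of 0.05, with a bandwidth of 300 and 1 tag kept per position. The deposited signal is the pileup of tags at the summit, the deposited fold is the ratio of that pileup to the control, and the authors' −log10 p-values and q-values stand beside them. Per the file headers, duplicates made up 0.08 to 0.2 of the tags in 4 libraries and 0 in the CREBBP and MED1 libraries, and the lists were not adjusted for this.

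Peaks on chromosomes 1 to 22 and X were read with Python 3.11.15, pandas 2.3.3 and NumPy 2.4.6 and drawn with matplotlib 3.10.9. Members overlap the locus by at least 1 bp, and zones were set by the summit. Ranks and percentiles stay within a list, and the counts were tested on simulated data. The members and lists were chosen with earlier results of these data known. The text names the border genes, the 3 merged regions of each zone with most lists, V segments with all 6 lists, functional segments with none, the highest folds of each list, pairs split between copies and the first 2 segments of each cluster by OCT2 fold. Other names were chosen after their values were seen. The gene table gives no strand, so either end of a segment was used, and the textbook start was an added alternative. The planned octamer search in V promoters was not run, since the promoter table used here holds none of them. Alternatives were a −log10 q of at least 5, lists shortened to 23571 peaks, a 50% overlap, windows of 500 bp and 2 kb, and the summit in place of the whole peak.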

Additional observations from a re-analysis of the deposited data

How the results depend on the processing

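Under the other settings 172 recomputed values stayed within a set limit and 35 moved. The limit was 1.5 times for counts, the binomial interval for shares and the range between the quartiles for summit distances. The binomial interval treats neighbouring peaks of 1 library as independent, which they are not, so it served as a yardstick and not as a test. The windows of 500 bp and 2 kb, the summit or any overlap as the rule of place and the 50% overlap moved none. Nor did the textbook 5′ start or the 500 bp limit on summit distance. Most V segments are shorter than 1 kb, so the window at the textbook 5′ start also reached their 3′ end. It could hardly change the counts and does not show that they hold for the 5′ side. With a summit in the 300 bp upstream, MED1 had 28 segments in place of 39 and CREBBP 33 in place of 39, while OCT1 kept its 29. With a −log10 q of at least 5, peaks from the downstream stretch to IGKV4-1 fell to 35 for MED1, 36 for CREBBP and 31 for EP300, and proximal V peaks of MED1 to 27. Shortening every list to its strongest 23571 peaks removes weak peaks by construction. It left 74 OCT2, 71 OCA-B, 65 EP300, 72 CREBBP and 85 MED1 peaks in the locus and 105 merged regions. From the downstream stretch to IGKV4-1 it left 21 OCT2, 20 OCA-B, 11 EP300, 24 CREBBP and 27 MED1 peaks, and in the proximal zone 25, 23, 28, 24 and 22. In the distal zone it left 26 OCT2, 33 MED1, 20 CREBBP and 23 EP300 peaks. The share of OCA-B peaks overlapped became 90.1% for OCT2, 62.0% for OCT1 and 81.7% for EP300. The share of OCT2 peaks became 78.4% for OCA-B, 58.1% for OCT1, 77.0% for MED1 and 70.3% for CREBBP. The share of OCT1 peaks became 89.1% for OCT2, 81.8% for MED1, 76.4% for CREBBP and 74.5% for EP300. Genome-wide shares of the shortened lists were not computed. The shares of the shortened lists therefore have no background, and the genome-wide shares of the full lists do not serve as one. No paired analysis was possible because each factor has 1 library and no replicate numbers. The octamer search in V promoters was not run.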

Other observations

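Kappa V segments also occur outside the locus, as orphons that cannot take part in the joining. Of 18 in the gene table, 8 had a peak of some list within 1 kb. All 7 orphons of the IGKV2 family had peaks of all 6 lists, and of the other 11, IGKV1OR2-11 had an EP300 peak and the rest had none. This set was added after the family counts of the locus were seen, and the caution on reads shared by near copies holds for it as well.

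Contigs of chromosome 2 outside the main assembly lie beyond the rule for members. They held 48 OCT2, 16 OCT1, 23 OCA-B, 44 EP300, 24 CREBBP and 18 MED1 peaks, and their content was not analysed here.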
